A study of Mus musculus with 20 samples.

Results

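The receptors for the Fc part of immunoglobulin G (IgG) were followed here through 6 mouse genes, chosen by symbol: the activating receptor genes Fcgr1, Fcgr3 and Fcgr4, the signalling chain gene Fcer1g, the inhibitory receptor gene Fcgr2b and the neonatal Fc receptor gene Fcgrt. They are 6 of the 46983 genes in the count table. The libraries came from orthotopic tumours of KPC pancreatic cancer cells, a cultured mouse line placed in the pancreas of untreated C57BL/6 hosts and sampled at 2 weeks. Host mice were IL33-/- (libraries labelled IL33KO) or wild type (WT), and all tumours were grown from KPC cells, so the hosts alone differ by label. For each host genotype there were 5 libraries of leukocytes taken from the tumour with CD45 magnetic beads, called sorted here as in the labels, and 5 libraries of bulk tumour. The labels name 5 mice per genotype, do not tie a library to a mouse and do not describe the deleted part of Il33.

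Fc gamma receptors bind the constant part of IgG and so let a cell react to antibody-coated targets. Fcgr1, Fcgr3 and Fcgr4 proteins in the mouse signal through the Fcer1g chain, which carries an immunoreceptor tyrosine-based activation motif (ITAM). Fcgr2b carries an inhibitory motif and dampens the same cells, so the ratio of activating to inhibitory receptors is a common description of how a macrophage is set to answer immune complexes. Macrophages and monocytes express all of them; natural killer cells are known for Fcgr3 and B cells for Fcgr2b. Fcgrt, also called FcRn, sits mainly in endosomes, pairs with beta-2 microglobulin (B2m) and returns IgG and albumin to the cell surface instead of to degradation.

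In GENCODE M21 coordinates (GRCm38, the mm10 build of the count table), 4 of the 6 genes lie close together on chromosome 1. Fcgr2b (ENSMUSG00000026656.15) spans chr1:170958617-170976547 on the minus strand, Fcgr4 (ENSMUSG00000059089.4) chr1:171018920-171029761 on the plus strand, Fcgr3 (ENSMUSG00000059498.13) chr1:171051174-171064935 on the minus strand and Fcer1g (ENSMUSG00000058715.11) chr1:171229572-171234365 on the minus strand. Fcgr1 (ENSMUSG00000015947.10) is at chr3:96282909-96293969 and Fcgrt (ENSMUSG00000003420.7) at chr7:45092990-45103851, both on the minus strand. All 6 are protein-coding, and the counts cover their exons.

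Fcgr3 and Fcgr2b are the close pair of the family. Over 756 aligned coding bases they were 87.8% identical, against 69.8% for Fcgr4 and Fcgr3 and 66.9% for Fcgr1 and Fcgr3. A stretch of 90 coding bases, positions 263 to 352 of the Fcgr3 coding sequence and 278 to 367 of that of Fcgr2b, is the same in both genes. It is a window of set length and need not be the full extent of identity, since windows of 100 bases were shared too. It is shown because a read inside it cannot be given to 1 gene.
Fcgr3 and Fcgr2b, shared coding stretch: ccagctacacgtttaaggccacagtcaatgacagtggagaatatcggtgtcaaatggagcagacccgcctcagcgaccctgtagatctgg
Of all 50-base windows in the coding transcripts of Fcgr3, 10.2% were also found in Fcgr2b, and 2.70% of 100-base windows were; seen from Fcgr2b the shares were 4.48% and 1.14%, and 6.715% of its 50-base windows were found in some other gene. Fcgr1, Fcgr4, Fcer1g and Fcgrt had no window in common with another gene at either length. Reads that aligned to more than 1 place were not counted, so Fcgr3 and Fcgr2b carry this uncertainty in every value below. Fcgr2b also overlaps the antisense gene Gm38204 by 155 exon bases, but Gm38204 had at most 8 counts in any library.

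The promoters of the 3 ligand-binding activating receptor genes are shown because each holds a short match to the box of a factor known as a regulator of macrophage genes. They are RefSeq windows of GRCm38.p6, from 250 bases before to 50 bases after the transcription start, in the direction of the gene. Capitals mark GAGGAA, the core of the box bound by PU.1 (the product of Spi1), on either strand (as TTCCTC here). The RefSeq start of Fcgr3 lies inside the GENCODE span of the gene.
Fcgr1, chr3:96293920-96294219, minus strand: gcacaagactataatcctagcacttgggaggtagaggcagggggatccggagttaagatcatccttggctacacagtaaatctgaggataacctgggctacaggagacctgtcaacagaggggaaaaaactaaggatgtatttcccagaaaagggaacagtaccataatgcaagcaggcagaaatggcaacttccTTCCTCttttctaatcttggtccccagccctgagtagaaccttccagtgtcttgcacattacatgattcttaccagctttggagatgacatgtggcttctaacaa
Fcgr3, chr1:171059354-171059653, minus strand: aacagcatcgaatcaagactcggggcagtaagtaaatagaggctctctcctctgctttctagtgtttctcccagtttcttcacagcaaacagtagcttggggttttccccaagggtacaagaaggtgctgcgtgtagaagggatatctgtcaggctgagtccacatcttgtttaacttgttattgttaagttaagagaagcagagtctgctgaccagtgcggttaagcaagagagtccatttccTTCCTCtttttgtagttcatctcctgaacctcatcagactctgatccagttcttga
Fcgr4, chr1:171018676-171018975, plus strand: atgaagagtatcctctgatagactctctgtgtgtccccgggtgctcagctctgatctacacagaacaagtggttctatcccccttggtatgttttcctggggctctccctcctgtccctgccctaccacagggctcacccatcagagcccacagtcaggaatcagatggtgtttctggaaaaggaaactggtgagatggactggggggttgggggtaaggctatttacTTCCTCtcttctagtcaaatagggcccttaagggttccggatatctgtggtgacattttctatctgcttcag
The box starts at position -55 in Fcgr1, -6 in Fcgr3 and -22 in Fcgr4, counted from the transcription start. A second RefSeq start of Fcgr3 (window chr1:171059345-171059644) puts the same box at -15. In Fcgr4 the match is part of the longer form GAGGAAGT, which 3.28% of 27025 promoters hold. GAGGAA was present in 28.3% of these promoters, so single matches are common. It was not found in the windows of Fcer1g, Fcgr2b and Fcgrt, and no value here ties the box to the levels of the genes that hold it.

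Each library held 51273064 to 80957402 counts in genes, and every member had at least 1076 counts in each library, so counting error was small beside the spread between libraries. Values are CPM, the usual counts-per-million unit, on library sizes scaled by the trimmed mean of M values (TMM), with mean ± SD over n = 5 libraries. Log2 fold changes come from edgeR's quasi-likelihood test, with p adjusted by Benjamini-Hochberg over all genes tested and a threshold of 0.05. Their standard error (SE) was worked back from the fold change and the test statistic. Il33 itself was counted in every library, at 14.2 to 25.3 CPM in sorted libraries labelled IL33KO and 5.71 to 20.7 CPM in sorted WT, and at 38.0 to 56.2 CPM in bulk libraries labelled IL33KO and 54.0 to 66.9 CPM in bulk WT; gene-level counts do not check the deletion. The sorted libraries fitted their label: the 8 pan-leukocyte markers (Ptprc, which encodes CD45, among them) summed to 7365 to 8966 CPM in sorted libraries labelled IL33KO and 664 to 1297 CPM in bulk ones, and to 7348 to 10113 CPM in sorted WT against 584 to 1305 CPM in bulk WT. They also held epithelial markers (948 to 2516 CPM summed over 6 genes) and pancreatic acinar markers, which reached 43872 CPM in sorted IL33KO replicate 3 against 659 to 7411 CPM in the other sorted libraries.

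All 6 genes were well expressed in the tumour leukocytes. Per kilobase of exon, the mean levels over the 10 sorted libraries were 960.1 CPM per kb for Fcer1g, 559 for Fcgr3, 241 for Fcgr4, 132 for Fcgr2b, 106 for Fcgrt and 75.9 for Fcgr1. Of 16688 genes compared in sorted libraries, 65 had a higher value per kb than Fcer1g and 127 a higher value than Fcgr3. In bulk tumour the order was the same except that Fcgrt, at 23.9 CPM per kb, stood above Fcgr2b, at 15.1; Fcer1g had 94.7, Fcgr3 66.8, Fcgr4 29.4 and Fcgr1 8.23. With the longest coding transcript in place of all exons, Fcgr2b was at 215 CPM per kb in sorted and 24.7 in bulk libraries, and the order of the genes did not change in either material.

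**Figure D1:**
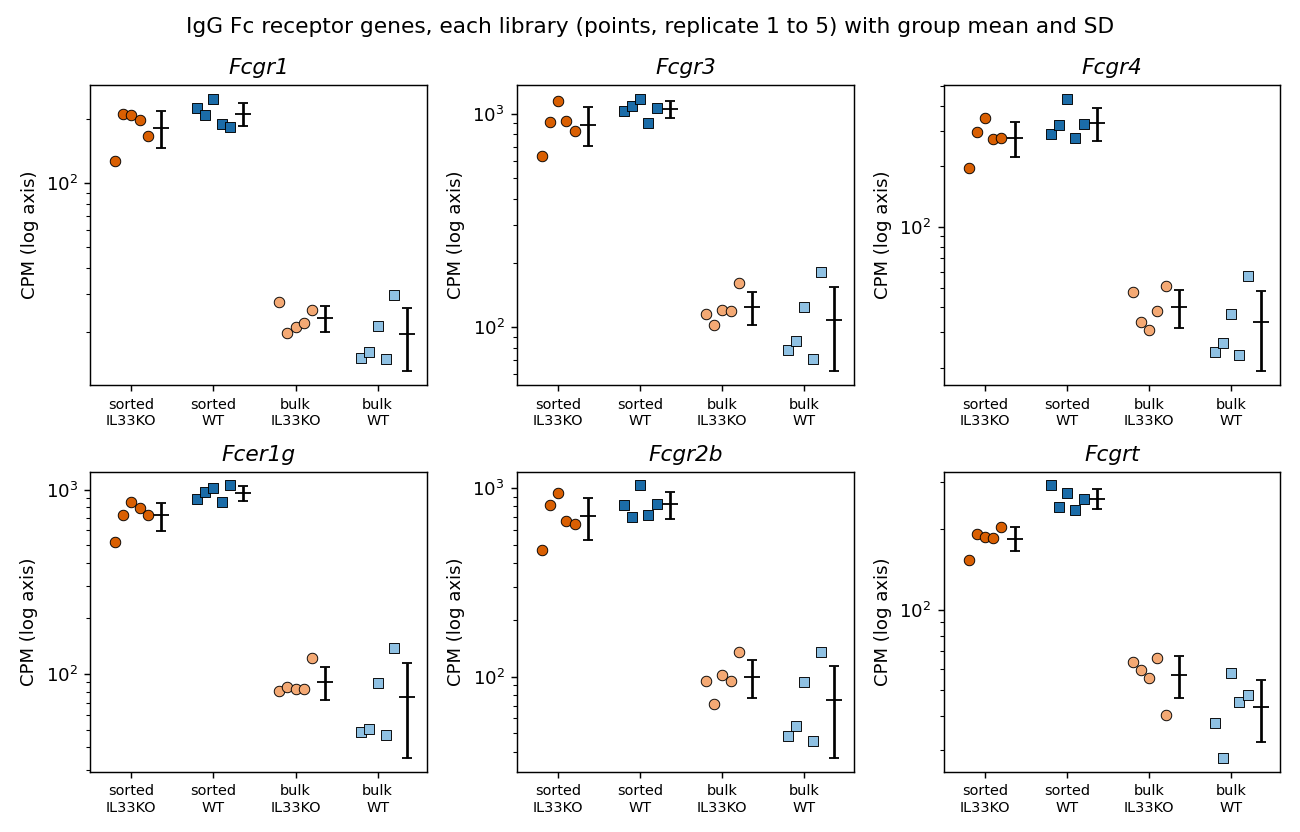
CPM of the 6 IgG Fc receptor genes in each library (points, replicates 1 to 5 from left to right, log axis), with the group mean and SD (bars) beside them, for sorted IL33KO, sorted WT, bulk IL33KO and bulk WT libraries. Sorted libraries stood above all bulk libraries for every gene, and Fcgrt alone had no overlap between the sorted genotypes (154 to 203 CPM in IL33KO, 235 to 291 CPM in WT).

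The comparison of sorted leukocytes with bulk tumour asked how far each gene is carried by the CD45+ cells. Every member was higher in all 5 sorted libraries than in all 5 bulk libraries of the same genotype, as were 23.7% of 18145 genes in IL33KO and 26.1% in WT. In libraries labelled IL33KO all 6 members were called higher, where 31.3% of genes were; in WT all 6 were again called, where 33.7% were. The folds were 7.02 to 12.8 for the Fc gamma receptors and their chain, and 3.28 in IL33KO and 6.04 in WT for Fcgrt. A lower level in bulk tissue can come from fewer cells of a type or from less RNA per cell, and these data cannot tell the 2 apart.

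Fcer1g, the shared ITAM chain, had the highest fold of the 6 in each genotype. Those of Fcgr1 and Fcgr2b lay within 1 SE of Fcer1g, taking the SE of Fcer1g, though no test compared genes. In libraries labelled IL33KO it measured 522, 724, 853, 794 and 725 CPM in sorted and 80.6, 84.7, 82.6, 82.7 and 123 CPM in bulk material, 8.12-fold (log2 3.02, SE 0.27, edgeR adjusted p = 1.74e-08). In WT it measured 886, 966, 1017, 851 and 1054 CPM in sorted libraries, against 48.5, 50.6, 89.8, 46.8 and 139 CPM in bulk libraries, a 12.8-fold difference (log2 3.68, SE 0.27, adjusted p = 1.29e-09). Sorted WT stayed within 851 to 1054 CPM, and sorted IL33KO ran from 522 to 853 CPM. Bulk WT was wide, with replicates 3 and 5 far above the other 3.

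Fcgr1, the high-affinity receptor, measured 126, 211, 208, 198 and 165 CPM in sorted libraries labelled IL33KO and 27.6, 19.9, 21.1, 22.1 and 25.2 CPM in bulk ones. In WT it measured 225, 208, 249, 190.3 and 184 CPM in sorted libraries, against 15.1, 16.1, 21.2, 14.9 and 29.9 CPM in bulk libraries. Its log2 difference was 3.00 in IL33KO (SE 0.20, edgeR adjusted p = 4.53e-10) and 3.45 in WT (SE 0.20, adjusted p = 6.31e-11). Sorted IL33KO replicate 1 was the lowest sorted library, and it was also the lowest for the other 5 members.

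Fcgr3, a low-affinity receptor that macrophages share with natural killer cells, measured 632, 915, 1143, 924 and 834 CPM in sorted and 115, 102, 121, 119 and 160.3 CPM in bulk IL33KO libraries (log2 2.87, SE 0.23, edgeR adjusted p = 5.85e-09). In WT it measured 1029.7, 1088, 1177, 900.3 and 1061 CPM in sorted and 78.0, 86.1, 125, 70.5 and 182 CPM in bulk libraries (log2 3.29, SE 0.24, adjusted p = 8.19e-10). Fcgr4 is the mouse receptor of intermediate affinity found on monocytes, macrophages and neutrophils. It measured 196, 296, 347, 273 and 277 CPM in sorted and 47.5, 33.6, 30.9, 38.2 and 51.0 CPM in bulk IL33KO libraries (log2 2.81, SE 0.24, edgeR adjusted p = 1.4e-08). In WT it measured 288, 320.3, 434, 277 and 323 CPM in sorted and 23.98, 26.7, 37.1, 23.1 and 57.5 CPM in bulk libraries (log2 3.29, SE 0.25, adjusted p = 1.5e-09). Fcgr3 and Fcgr4 had the same pattern over bulk WT libraries, with replicate 5 highest, replicate 3 next and replicates 1, 2 and 4 low.

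Fcgr2b, the inhibitory receptor, measured 469, 808, 944, 668 and 648 CPM in sorted and 94.9, 71.1, 102, 95.3 and 135 CPM in bulk libraries labelled IL33KO, 7.21-fold (log2 2.85, SE 0.28, edgeR adjusted p = 8.19e-08). In WT the values were 815, 703, 1033, 721 and 826 CPM in sorted and 48.3, 54.9, 93.4, 45.4 and 135 CPM in bulk libraries, 10.9-fold (log2 3.45, SE 0.29, adjusted p = 6.26e-09). The 3 activating receptors had log2 differences of 2.81 to 3.00 in IL33KO and 3.29 to 3.45 in WT, within 1 SE of that of Fcgr2b in each genotype. The SE is the uncertainty of the fold change of 1 gene, and the genes were not tested against each other.

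Fcgrt, the recycling receptor, had the smallest differences. It measured 154, 191, 187, 185 and 203 CPM in sorted libraries labelled IL33KO, against 63.8, 59.8, 55.5, 66.2 and 40.6 CPM in bulk ones, 3.28-fold (log2 1.71, SE 0.16, edgeR adjusted p = 3.39e-08). In WT it measured 291, 241, 273, 235 and 258 CPM in sorted and 37.9, 28.0, 57.9, 45.1 and 48.1 CPM in bulk libraries, 6.04-fold (log2 2.59, SE 0.16, adjusted p = 1.86e-10). B2m, its light chain, which nearly all nucleated cells express, was called higher in sorted material of both genotypes by less, with log2 0.59 in IL33KO and 0.70 in WT. The size of the member folds depends on scaling: with library size alone the median of all genes moved by -0.44 in IL33KO and -0.51 in WT on the log2 scale, the calls in IL33KO became 3416 higher and 9123 lower against 5682 and 5747, and those in WT 3647 and 9551 against 6117 and 6230, while all 6 members were still called higher.

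**Figure D2:**
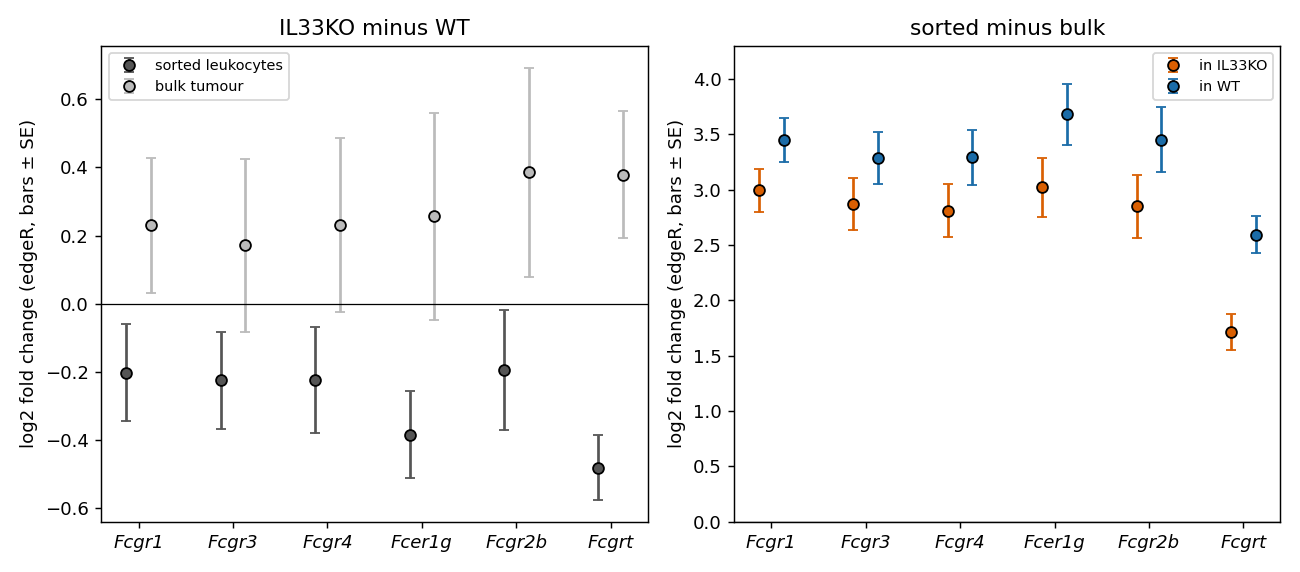
Log2 fold changes of the 6 genes from edgeR (points) with SE (bars), for IL33KO minus WT in sorted leukocytes and bulk tumour (left) and for sorted minus bulk in IL33KO and WT (right). The genotype differences lay between -0.48 and -0.20 in sorted leukocytes and between 0.17 and 0.39 in bulk tumour, none called by edgeR, and Fcgrt had the smallest sorted minus bulk values (1.71 in IL33KO, 2.59 in WT).

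A gene next to a member is given for comparison. Rcn3, a calcium-binding protein gene of the endoplasmic reticulum 769 bases from Fcgrt on the same strand, had sorted minus bulk differences of -0.47 (SE 0.30, edgeR adjusted p = 0.183) in IL33KO and 0.65 (SE 0.31, adjusted p = 0.0665) in WT. It was called in neither genotype.

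Genes of the surrounding pathway are given by list, beside the 31.3% in IL33KO and 33.7% in WT of all genes called higher. Of 13 tested ITAM kinase and signalling genes, 13 were called higher in sorted than in bulk libraries in each genotype, with a median log2 difference of 2.77 in IL33KO and 3.13 in WT, against 0.02 in IL33KO and 0.00 in WT over all genes. All 5 other ITAM adaptors and all 7 tested receptors that use the Fcer1g chain were called higher in each genotype. Of 14 factors known to set Fc gamma receptor levels, 11 in IL33KO and 12 in WT were called higher and none lower (median 2.12 in IL33KO, 2.51 in WT). Of 12 tested other immunoglobulin receptors and Fc receptor-like genes, 9 were called higher and 1, Pigr, lower in each genotype. Of 8 genes of inhibitory signalling, 5 were called higher and 2 lower in IL33KO, and 6 higher and 2 lower in WT, with the smaller medians of 0.88 in IL33KO and 1.21 in WT. The IgG heavy chain genes, which encode the ligand, were higher by a median of 5.96 in IL33KO (3 of 4 called) and 6.28 in WT (4 of 4 called); these are antibody genes of B-lineage cells.

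The next comparison asked whether Fc receptor transcripts in tumour leukocytes differ between hosts. In edgeR 0 of the 6 members were called, where 0.012% of 16731 genes were (1 higher and 1 lower). All 6 log2 differences were negative, with a median of -0.22, against 0.02 over all genes, 46.3% of which were negative. The members vary together between libraries, so the 6 signs are not independent of each other.

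Fcgrt stood apart from the others in the sorted comparison. Its 5 libraries labelled IL33KO (154 to 203 CPM, mean 184 ± 18.5) all lay below the 5 WT libraries (235 to 291 CPM, mean 259.6 ± 23.1), as was so for 2.72% of the genes tested. The edgeR log2 difference was -0.48 (SE 0.09, p = 0.000373, adjusted p = 0.146), with 39 genes of smaller p, and its exact permutation p was 0.00794, the smallest that 5 libraries against 5 allow. DESeq2 (log2 -0.49, adjusted p = 0.000368, where it called 2.36% of genes lower) and voom of limma, which weights each library by its quality (log2 -0.43, adjusted p = 0.0380, where it called 1.27% lower) called it lower in IL33KO. The other 17 alternatives did not, and over all 19 the adjusted p ran from 0.000368 to 0.386; without both sorted libraries numbered 3, the acinar-rich one among them, it was 0.0955 (log2 -0.49).

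Fcer1g had the next largest difference, at 724 ± 125 CPM in libraries labelled IL33KO and 955 ± 85.5 CPM in WT (log2 -0.38, SE 0.13, edgeR adjusted p = 0.268). Its groups touched at replicate 3 labelled IL33KO, at 853 CPM, and WT replicate 4, at 851 CPM, and the exact permutation test gave p = 0.0159. Neither DESeq2 (adjusted p = 0.0763) nor voom (0.0798) called it.

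The 4 ligand-binding Fc gamma receptors overlapped between genotypes. Fcgr1 averaged 182 ± 35.9 CPM in libraries labelled IL33KO and 211 ± 26.7 CPM in WT (log2 -0.20, SE 0.14, edgeR adjusted p = 0.589). Fcgr3 averaged 889.6 ± 184 CPM in libraries labelled IL33KO and 1051 ± 101 CPM in WT (log2 -0.22, SE 0.14, adjusted p = 0.537). Fcgr4 averaged 278 ± 54.5 CPM in libraries labelled IL33KO and 328 ± 62.2 CPM in WT (log2 -0.22, SE 0.16, adjusted p = 0.584). Fcgr2b averaged 707 ± 179 CPM in libraries labelled IL33KO and 819.8 ± 131 CPM in WT (log2 -0.20, SE 0.18, adjusted p = 0.684). For each of these 4 genes 4 of 5 libraries labelled IL33KO lay below the WT median, replicate 1 was the lowest of all 10, and exact permutation p ran over 0.111 to 0.278. Without replicate 1 labelled IL33KO the differences were -0.093 for Fcgr1, -0.12 for Fcgr3, -0.12 for Fcgr4, -0.28 for Fcer1g, -0.076 for Fcgr2b and -0.42 for Fcgrt; without the acinar-rich replicate 3 they ran from -0.26 (Fcgr1) to -0.49 (Fcgrt), with no call either way.

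Macrophage markers were also lower in sum. The 12 macrophage markers, all detected in every library, summed to 6355 to 10161 CPM in sorted libraries labelled IL33KO and 10645 to 13238 CPM in sorted WT, again without overlap, and replicate 1 labelled IL33KO was the lowest. Not every library followed its sum. Replicate 3 labelled IL33KO had the next lowest sum of all 10 (8834 CPM) but the second-highest Fcgr3, Fcgr4 and Fcgr2b, and replicate 5 labelled IL33KO had the highest sum of its group but the second-lowest Fcgr1 and Fcgr2b. All 12 had negative log2 differences (median -0.31), none called by edgeR. With the macrophage score (mean log2 CPM of the 12) as a covariate, the differences were 0.11 for Fcgr1, 0.062 for Fcgr3, 0.11 for Fcgr4 and 0.18 for Fcgr2b, with the sign turned, and -0.15 for Fcer1g and -0.29 for Fcgrt (adjusted p = 0.333). The sums of other markers overlapped between the sorted genotypes: 2710 to 17182 CPM in IL33KO and 3591 to 7661 CPM in WT for neutrophils, 131 to 988 CPM in IL33KO and 194 to 638 CPM in WT for B cells, and 54.1 to 101 CPM in IL33KO and 36.1 to 97.0 CPM in WT for natural killer cells. Of 8 neutrophil markers 6 had negative log2 differences (median -0.30). All 7 B cell markers (median 0.64) and all 7 natural killer cell markers (median 0.14) had positive ones, and none of these 3 lists held a called gene. Classical monocyte markers summed to 1176 to 4616 CPM in IL33KO and 1502 to 2795 CPM in WT, with 6 of 6 log2 differences positive (median 0.10) and none called. Non-classical monocyte markers summed to 858 to 1254 CPM in IL33KO and 1065 to 1644 CPM in WT, with 2 of 5 positive. Replicate 3 labelled IL33KO held the highest neutrophil and classical monocyte sums. The part of these other cell types in the receptor values was not tested.

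**Figure D3:**
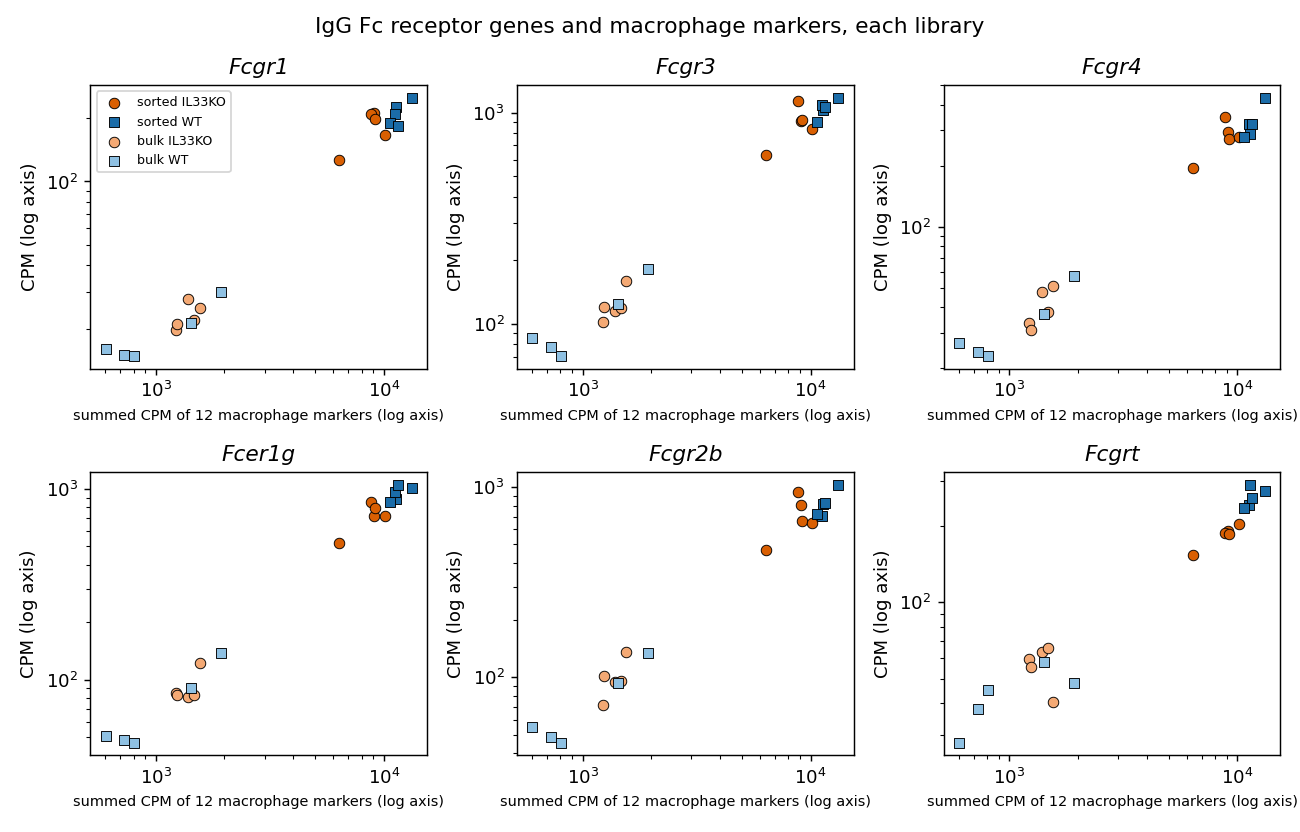
CPM of each gene (vertical log axis) against the summed CPM of 12 macrophage markers (horizontal log axis) in each library, for sorted IL33KO, sorted WT, bulk IL33KO and bulk WT. Marker sums were 6355 to 10161 CPM in sorted IL33KO, 10645 to 13238 CPM in sorted WT, 1224 to 1557 CPM in bulk IL33KO and 603 to 1928 CPM in bulk WT, and the receptor genes were higher in the sorted libraries, which had the higher sums.

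No gene of the 8 pathway lists was called by edgeR in the sorted comparison. The 4 IgG heavy chain genes had a median of -0.51 (0 positive, 4 negative), 12 other immunoglobulin receptors 0.26 (9 positive, 3 negative), 7 receptors that use the Fcer1g chain -0.13 (2 positive, 5 negative), 5 other ITAM adaptors 0.14 (3 positive, 2 negative) and 8 genes of inhibitory signalling -0.09 (2 positive, 6 negative). All 14 factors known to set Fc gamma receptor levels had negative differences, with a median of -0.15. Spi1, which encodes PU.1, had the smallest p among them, at 257 ± 13.6 CPM in libraries labelled IL33KO and 335 ± 30.2 CPM in WT, without overlap (log2 -0.37, SE 0.08, edgeR adjusted p = 0.151); DESeq2 (adjusted p = 0.00119) and voom (0.0387) called it lower. Tgfb1, a cytokine gene, had log2 -0.31 (SE 0.08, edgeR adjusted p = 0.169), also without overlap (276 to 329 CPM in IL33KO, 351 to 417 CPM in WT). DESeq2 called Tgfb1 lower (adjusted p = 0.00138) and voom did not (0.0529). Of 13 ITAM signalling genes 11 had negative differences, led by the adaptor Lat2 at -0.29 (SE 0.12, adjusted p = 0.352) and the exchange factor Vav1 at -0.21 (SE 0.09, adjusted p = 0.364). Tyrobp (DAP12), the ITAM adaptor of other myeloid receptors, was at -0.27 (SE 0.12, adjusted p = 0.385), and Clec4d, a lectin receptor that uses the Fcer1g chain, at -0.51 (SE 0.22, adjusted p = 0.374). B2m, the partner of Fcgrt, was at -0.13 (SE 0.13, adjusted p = 0.701), and Trim21, a cytosolic IgG receptor, at 0.24 (SE 0.11, adjusted p = 0.383). Rcn3 beside Fcgrt was at -0.35 (SE 0.16, adjusted p = 0.413) and Nosip, 14780 bases from it, at -0.22 (SE 0.07, adjusted p = 0.277).

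In bulk tumour the genotype differences had the other sign. EdgeR called 0 of 6 members and 0% of 17258 genes; 1098 genes (6.36%) had an unadjusted p under 0.05, none of them a member, DESeq2 called 50 genes and voom 3371. The 6 log2 differences were positive (48.8% of all genes had negative ones) and lay between 0.17 (SE 0.25, Fcgr3) and 0.39 (SE 0.31, Fcgr2b), with adjusted p from 0.724 to 0.821. Fcgr2b averaged 99.7 ± 23.0 CPM in libraries labelled IL33KO and 75.4 ± 38.4 CPM in WT, and Fcgrt 57.2 ± 10.1 CPM in libraries labelled IL33KO and 43.4 ± 11.2 CPM in WT (log2 0.38, SE 0.19, adjusted p = 0.724). The WT spread was the wider one for each member. Fcgr1 averaged 23.2 ± 3.17 CPM in IL33KO and 19.5 ± 6.41 CPM in WT, and Fcgr3 124 ± 21.8 CPM in IL33KO and 108 ± 46.2 CPM in WT. Fcgr4 averaged 40.2 ± 8.72 CPM in IL33KO and 33.7 ± 14.4 CPM in WT, and Fcer1g 90.7 ± 18.0 CPM in IL33KO and 74.8 ± 39.9 CPM in WT. Exact permutation p ran from 0.0952 (Fcgrt) to 0.365 (Fcgr3). All groups overlapped, since bulk WT replicate 5 was among the highest libraries for every member but Fcgrt, while bulk WT replicates 1, 2 and 4 were the lowest libraries of all 10 for the 5 others.

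Of the tools and settings run, voom alone called all 6 members higher in bulk libraries labelled IL33KO (log2 0.47 to 0.80, adjusted p = 0.0183 to 0.0380), where it called 11.1% of genes higher. Bulk WT replicate 5 also stood apart in acinar markers, at 9129 CPM against 24.8 to 1738.5 CPM in the other bulk libraries. Without it edgeR called 19 genes, none a member, and the members' differences were 0.44 for Fcgr1, 0.45 for Fcgr3, 0.52 for Fcgr4, 0.61 for Fcer1g, 0.71 for Fcgr2b and 0.42 for Fcgrt (adjusted p = 0.111 to 0.214). The macrophage marker sum was 1224 to 1557 CPM in bulk libraries labelled IL33KO and 603 to 1928 CPM in bulk WT, and the pan-leukocyte sum was likewise lowest in WT replicates 1, 2 and 4 (584 to 589 CPM). With the macrophage score as a covariate the members' differences were -0.040 for Fcgr1, -0.15 for Fcgr3, -0.11 for Fcgr4, -0.10 for Fcer1g, 0.0040 for Fcgr2b and 0.18 for Fcgrt. No pathway gene was called in bulk tumour: positive differences were seen for 2 of 4 IgG heavy chains, 10 of 11 other immunoglobulin receptors, 4 of 6 receptors that use the Fcer1g chain, 5 of 5 other ITAM adaptors, 11 of 13 ITAM signalling genes, 4 of 8 inhibitory signalling genes and 10 of 13 level-setting factors, and a negative one for B2m. Of the pathway genes with the smallest p in bulk tumour, Fyn, a Src-family kinase gene, had log2 0.39 (SE 0.25, edgeR adjusted p = 0.724) and Dok1, an inhibitory adaptor gene, 0.44 (SE 0.23, adjusted p = 0.724). Pigr, the epithelial receptor for polymeric immunoglobulin, was at 193 ± 129 CPM in libraries labelled IL33KO and 761 ± 399 CPM in WT (fold 0.249, edgeR adjusted p = 0.724), and DESeq2 (adjusted p = 0.0161) and voom (0.00869) called it lower. In the same comparison tumour epithelium markers summed to 5494 to 8171 CPM in IL33KO and 6725 to 8999 CPM in WT (5 of 6 negative, median -0.21). B cell markers summed to 17.1 to 167 CPM in IL33KO and 9.19 to 58.4 CPM in WT (7 of 7 positive, median 1.40). None of either list was called, and their part in these values was not tested.

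Whether the genotype difference itself differed between sorted and bulk material was tested as an interaction over all 20 libraries. All 6 values were negative, from -0.42 (SE 0.31, Fcgr3) to -0.88 (SE 0.22, Fcgrt), as the sorted differences were negative and the bulk ones positive. EdgeR called 0 of 6 members and 0% of 18145 genes (2028 at an unadjusted p under 0.05; DESeq2 called 4 and voom 3406). Fcgrt had an unadjusted p of 0.000736 and an adjusted p of 0.445, with 14 genes of smaller p; Fcer1g had -0.66 (SE 0.35, adjusted p = 0.461), Fcgr2b -0.60 (SE 0.38, 0.508), Fcgr4 -0.48 (SE 0.32, 0.530) and Fcgr1 -0.46 (SE 0.26, 0.476). Voom alone called all 6 (adjusted p = 0.00361 to 0.0233), where it called 10.3% of genes lower.

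The order of group means was the same for each of the 6 genes: sorted IL33KO stood below sorted WT, bulk IL33KO came next, and bulk WT was lowest. Of these neighbours, sorted IL33KO and bulk IL33KO never overlapped, the 2 bulk groups always did, and the 2 sorted groups did for every gene but Fcgrt.

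Ratios inside a library do not depend on library scaling. Fcgr4 to Fcgr2b, per kb of exon, was 1.69 to 1.97 in sorted libraries labelled IL33KO (median 1.88) and 1.63 to 2.10 in sorted WT (median 1.80), and 1.39 to 2.30 in bulk libraries labelled IL33KO and 1.83 to 2.34 in bulk WT. Fcgr3 to Fcgr2b was 3.78 to 4.61 in sorted libraries labelled IL33KO and 3.80 to 5.16 in sorted WT, and in bulk tumour 3.94 to 4.79 in IL33KO and 4.45 to 5.39 in WT. Fcgr1 to Fcgr2b was 0.492 to 0.662 in sorted IL33KO and 0.497 to 0.662 in sorted WT. The genotypes overlapped in all of these activating to inhibitory ratios, in sorted and in bulk libraries. Fcer1g to Fcgr2b was 5.94 to 7.87 in sorted IL33KO and 6.52 to 9.10 in sorted WT. These ratios are descriptions without a test, and with the longest coding transcript as length each ratio to Fcgr2b is lower by a factor that is the same in all libraries. For Fcgr4 to Fcgr2b the mean log2 ratio is then 0.16 in place of 0.87 in sorted IL33KO and 0.17 in place of 0.88 in sorted WT, and sorted WT replicate 1 and bulk IL33KO replicate 3 fall below equal levels, so whether Fcgr4 stood above Fcgr2b depends on the length used.

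Fcer1g and Fcgrt were also set against Fcgr3. Fcer1g to Fcgr3 was 1.48 to 1.73 in sorted libraries labelled IL33KO and 1.71 to 1.97 in sorted WT, 1.36 to 1.65 in bulk libraries labelled IL33KO and 1.17 to 1.51 in bulk WT. Fcgrt to Fcgr3, at 0.135 to 0.202 in sorted libraries labelled IL33KO and 0.183 to 0.233 in sorted WT, was 0.209 to 0.483 in bulk libraries labelled IL33KO and 0.218 to 0.528 in bulk WT. Fcgrt was thus lower relative to Fcgr3 in sorted than in bulk libraries of IL33KO without overlap, and with overlap in WT, where replicate 5 of each bulk group was the lowest. Ratios to Fcgr3 and the ratio of Fcgrt to Fcgr2b were chosen after the values were seen.

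**Figure D4:**
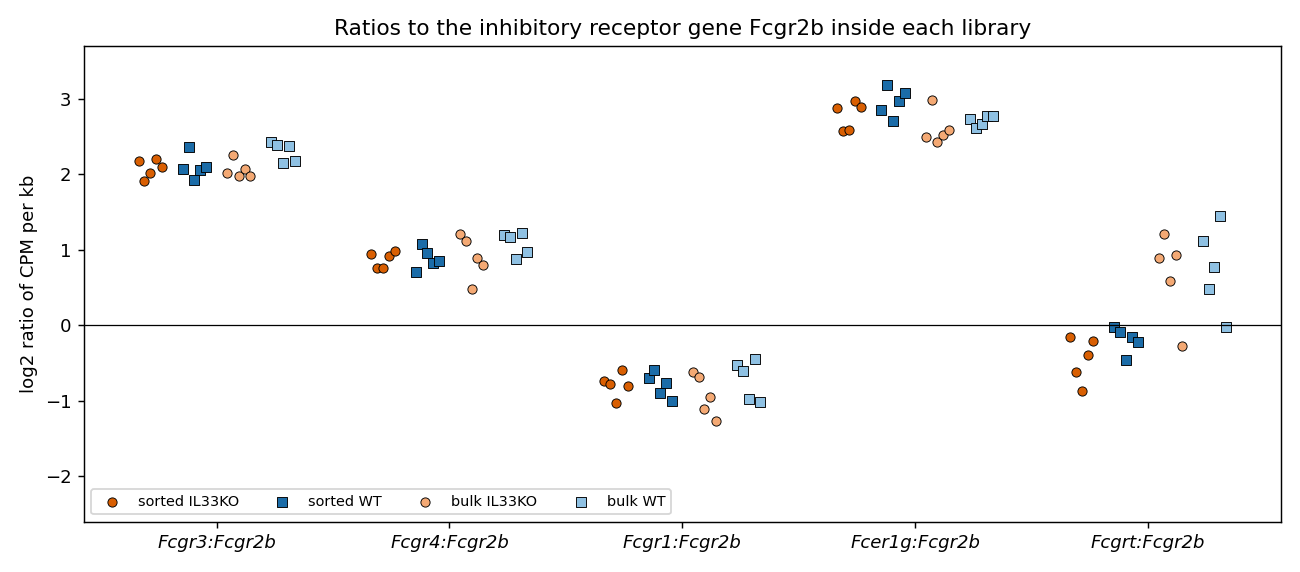
Log2 ratio of each gene to Fcgr2b in CPM per kb of exon, inside each library (points), for sorted IL33KO, sorted WT, bulk IL33KO and bulk WT from left to right. For the activating receptors and Fcer1g the 4 groups overlapped, while Fcgrt to Fcgr2b lay between -0.87 and -0.026 in sorted libraries and between -0.27 and 1.45 in bulk libraries.

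Over the 10 sorted libraries the members were positively correlated, in part through a few libraries. Among the 10 pairs that leave out Fcgrt, Pearson's r of log2 CPM ran from 0.774 to 0.931 and Spearman's rho from 0.430 to 0.879, and r was 0.727 to 0.928 for deviations from the genotype means. Without the 2 libraries farthest from the median, r of these 10 pairs ran from 0.161 to 0.875. Fcgr3 and Fcgr4 had r = 0.927 (permutation p = 5e-05, adjusted over 15 pairs 0.00075) and rho = 0.879 (permutation p = 0.00164, adjusted 0.0164), and r = 0.875 without the 2 libraries farthest from the Fcgr3 median. Fcgr3 and Fcer1g, receptor and chain, had r = 0.919 (permutation p = 0.00063, adjusted 0.0024), rho = 0.818 (permutation p = 0.00609, adjusted 0.0228) and r = 0.731 without the 2 farthest. Fcgr1 and Fcgr4 had r = 0.851 (permutation p = 0.00511, adjusted 0.00852) and rho = 0.588 (permutation p = 0.0813, adjusted 0.119), but r = 0.274 without the 2 libraries farthest from the Fcgr1 median, so that relation rests on those libraries. Fcgr1 and Fcer1g had r = 0.774 (permutation p = 0.0158, adjusted 0.0215), rho = 0.430 (permutation p = 0.219, adjusted 0.219) and r = 0.161 without the 2 farthest, and rest on them too; with Fcgr3 and Fcgr2b, Fcgr1 had r = 0.555 and 0.515 without them. The same holds for Fcgrt: its r with the other 5 was 0.624 to 0.836 (permutation p adjusted over the 15 pairs 0.00456 to 0.0497), and without 2 libraries 0.0214 to 0.293 for all but Fcer1g (0.716). Its rho was 0.503 to 0.782 (permutation p adjusted 0.0312 to 0.155), with only the pair with Fcer1g under 0.05. For deviations from the genotype means its r was 0.580 to 0.674, and 0.587 with Fcer1g in place of 0.836. No correlation over bulk libraries is given.

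Among 10639 other protein-coding genes that averaged 5 CPM or more in sorted libraries, those most like Fcgr1 over the 10 libraries were Lyz2, the macrophage lysozyme gene (r = 0.979), Pirb, an inhibitory receptor gene (0.967), and Vamp3 (0.959). Fcgr3 was most like Tspan14 (0.973), Degs1 (0.960) and Fabp5 (0.952), and Fcgr4 most like Alas1 (0.982), Glb1 (0.979) and Tspan31 (0.969). Fcer1g was closest to Copz1 (0.971), Txn1 (0.968) and Bcap31 (0.967), Fcgr2b to Calr (0.963), Ms4a6d (0.961) and Lman2l (0.958), and Fcgrt to Surf1 (0.974), Lrrc25 (0.963) and Nagpa (0.963). These r values are the highest of many and carry no test.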

How the data were processed

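The authors deposited raw read counts per gene for all 20 libraries, made with HTSeq on mm10 per the submitters' processing notes, which also name Picard and DESeq without versions; no source used here names the aligner or the strand setting. Libraries were stranded poly(A) preparations, per the labels' protocols. The 5 summary lines (26.1 to 40.5% of reads, of which reads not aligned uniquely were 12.5 to 22.5% of all reads) stayed out of library sizes and tests. A second table, the counts divided by DESeq size factors (scaled signal, per the file headers), was deposited by the authors and used only as an alternative.

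Counts were fitted in R 4.3.3 with edgeR 4.0.16 (filterByExpr, TMM, glmQLFit robust, glmQLFTest) on the whole table; limma 3.58.1 and DESeq2 1.42.0 served as alternatives, and log2 CPM used a prior count of 2. Genotypes were compared within each material, and sorted minus bulk and the interaction over all 20 libraries. Exact tests and correlations (100000 resamples) ran in Python 3.11.15 with SciPy 1.17.1. The edgeR test was first run on simulated data. All tests were two-sided. Lengths and coordinates came from GENCODE M21 (46488 genes matched) and promoters from RefSeq.

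Members and gene lists were chosen with earlier results of these data known. Genes named besides the 6 members were Il33, B2m, at most 2 per pathway list by smallest edgeR p in each genotype comparison, the 3 most like each member, and protein-coding neighbours within 20 kb; Gm38204 is given for its overlap and Ptprc as the bead target. Some items are not reported here. No libraries of a group agreed within sampling noise (lowest chi-square per gene 18.3). Nothing says which libraries are separate mice; the p-values therefore reflect spread among libraries that may be partly technical.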

Additional observations from a re-analysis of the deposited data

Results flagged for a closer look

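Of 56 groups of 5 libraries examined, 3 held a library whose gap to its nearest neighbour was too large for the range of its group; chance gives about 1 in 20. In bulk libraries labelled IL33KO, Fcer1g was at 123 CPM in replicate 5, against 80.6 to 84.7 CPM in the other 4. That library also had the highest sums of its group for macrophage (1557 CPM), pan-leukocyte (1297 CPM), neutrophil (561 CPM), B cell (167 CPM), T cell (119.9 CPM), natural killer cell (28.6 CPM), eosinophil (23.0 CPM) and both monocyte marker lists; their part in the value was not tested. In the same group, replicate 2 had the highest ratio of Fcgr3 to Fcgr2b, at 4.79 per kb of exon against 3.94 to 4.18, and of Fcer1g to Fcgr2b, at 7.89 against 5.36 to 6.01. Both ratios share the Fcgr2b value of that library, 71.1 CPM, the lowest of its group.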

How the results depend on the processing

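All 6 members stayed called higher in sorted than in bulk material under every alternative run, and the replicate block changed no member call. In the sorted genotype comparison, edgeR called 2 genes; DESeq2 called 566 and voom 400, each with 1 member (Fcgrt), while limma on the deposited scaled values, the replicate block and the macrophage covariate called 1 gene each, and leaving out 1 library gave 1 to 2. In bulk tumour, where edgeR called 0, DESeq2 called 50 genes and voom 3371 with 6 members; leaving out 1 library gave 0 to 19, the 19 without WT replicate 5. For the interaction, edgeR called 0, DESeq2 4, voom 3406 with 6 members, edgeR with DESeq2 size factors 1, and leaving out 1 library gave 0 to 27, the 27 without bulk WT replicate 5. The cause was not tested. The sign turned with the macrophage covariate in sorted leukocytes for Fcgr1 (0.11), Fcgr3 (0.062), Fcgr4 (0.11), Fcgr2b (0.18), Fcrls (0.027) and B2m (0.14), and in bulk tumour for Fcgr1 (-0.040), Fcgr3 (-0.15), Fcgr4 (-0.11) and Fcer1g (-0.10). None of these values was called, and in sorted leukocytes the covariate can hardly be separated from the genotype. The sign also turned for Cd79a in sorted leukocytes under voom (-0.048) and on the scaled values (-0.011), and in bulk tumour under voom for Ighg1 (0.95) and B2m (0.045). Leaving out 1 library gave -1.60 to 0.12 for Ighg2b in sorted leukocytes (0.12 without WT replicate 2), and in bulk tumour -1.44 to 0.94 for Ighg1 (0.94 without WT replicate 5), -0.13 to 0.013 for B2m (0.013 without IL33KO replicate 3), and -0.40 to 1.57 for Cd79b and -0.53 to 2.11 for Cd79a (both lowest without IL33KO replicate 5). Same-numbered sorted libraries of the 2 genotypes deviated together with r from -0.19 to 0.34 (3 of 5 pairs over 0.1, 3 of 5 best with their own number) and bulk ones with r from -0.12 to 0.59 (4 of 5 over 0.1, 1 of 5 best with its own number); sorted and bulk libraries gave -0.26 to 0.30 in IL33KO and -0.15 to 0.17 in WT (1 of 5 over 0.1 in each). No comparison had all 5 pairs over 0.1, so the numbers were not taken as pairing the samples. Ratios per length moved when length was left out or taken from the longest coding transcript, an alternative chosen after seeing the data. Depth limits little here: 3 counts stood for 0.0331 to 0.0676 CPM, far below every member.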
